A study of Mus musculus with 15 samples.

Results

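The mRNAs of 10 genes that build the MHC class I antigen presentation pathway were measured in 15 Renca tumors. The genes were chosen by their known roles, but with earlier results of these data known, out of 18279 genes in the table of normalized read counts. All 10 were matched by symbol: the light chain *B2m*, the heavy chains *H2-K1* and *H2-D1*, the peptide transporter genes *Tap1* and *Tap2*, the loading chaperone *Tapbp*, the immunoproteasome subunits *Psmb8*, *Psmb9* and *Psmb10*, and the transactivator *Nlrc5*. Renca is a mouse renal carcinoma cell line of BALB/c origin. Tumors 1 to 5 were controls, tumors 6 to 10 grew from *Pbrm1* knockout clone 4 and tumors 11 to 15 from *Pbrm1* knockout clone 18. *Pbrm1* encodes a subunit of the PBAF chromatin remodeling complex. All hosts were female BALB/c mice of 4 to 6 weeks with an intact immune system, each given 500000 Renca cells under the skin of the back in Matrigel. Tumors were taken at 1000 mm3, at ulceration or at signs of distress. The sample labels call the control cells parental Renca, whereas the study describes a control knockout line. The knockout lines were made with transiently expressed Cas9 and a repair plasmid that carries puromycin resistance and red fluorescent protein, and each is 1 sorted clone. Each group was therefore 1 cell line, and loss of *Pbrm1*, cloning and the plasmid cannot be told apart in a comparison with the controls. The sources used here do not say which of these mice, if any, received PD-1 antibody. P-values by clone measure the spread between tumors of the same line. Those for both clones together treat the 10 knockout tumors as 1 group, so their spread also holds the difference between the clones.

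Class I molecules display short peptides from inside the cell to CD8 T cells. The proteasome cuts proteins into peptides, and under interferon its 3 catalytic subunits are replaced by the immunoproteasome subunits, which changes the cuts that are made. The TAP1-TAP2 transporter carries peptides into the endoplasmic reticulum, where tapasin, the product of *Tapbp*, helps load them onto a heavy chain paired with β2-microglobulin. NLRC5 acts with the RFX factors at class I promoters, and tumors that lose parts of this pathway can escape CD8 T cells.

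In RefSeq for GRCm38.p6, windows around the transcription start were matched for 8 of the 10 genes, that is for all but *Tap2* and *Nlrc5*. The stretches before the start are shown for *B2m*, *H2-K1* and *H2-D1*, whose products form the class I molecule, and for the divergent pair *Psmb9* and *Tap1*, which share a single stretch between their starts. Capitals mark matches on either strand to TGACG, a CRE-like core of the class I X2 box, to CCAAT, the box bound by NF-Y, to an interferon-response-type repeat of GAAA after a gap of 2 bases, and to the consensus NF-kB site. Matches to different motifs do not overlap in these stretches, and the longer NF-kB run of *H2-K1* and *H2-D1* holds overlapping matches to the same motif.
*B2m*, chr2:122147437-122147686, plus strand: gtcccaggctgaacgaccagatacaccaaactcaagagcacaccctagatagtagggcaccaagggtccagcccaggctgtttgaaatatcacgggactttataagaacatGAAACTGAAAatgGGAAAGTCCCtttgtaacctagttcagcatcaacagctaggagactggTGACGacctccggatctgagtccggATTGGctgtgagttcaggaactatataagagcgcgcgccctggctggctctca
*H2-K1*, chr17:34000348-34000597, minus strand: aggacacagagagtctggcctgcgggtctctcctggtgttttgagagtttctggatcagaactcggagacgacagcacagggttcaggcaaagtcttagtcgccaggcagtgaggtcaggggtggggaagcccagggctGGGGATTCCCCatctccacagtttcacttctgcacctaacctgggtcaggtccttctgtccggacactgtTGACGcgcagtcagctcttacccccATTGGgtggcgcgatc
*H2-D1*, chr17:35262844-35263093, plus strand: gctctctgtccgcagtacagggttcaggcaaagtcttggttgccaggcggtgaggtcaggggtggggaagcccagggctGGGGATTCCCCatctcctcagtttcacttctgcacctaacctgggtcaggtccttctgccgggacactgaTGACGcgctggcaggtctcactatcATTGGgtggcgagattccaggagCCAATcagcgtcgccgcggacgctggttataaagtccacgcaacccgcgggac
*Psmb9* to *Tap1*, chr17:34187331-34187555, plus strand: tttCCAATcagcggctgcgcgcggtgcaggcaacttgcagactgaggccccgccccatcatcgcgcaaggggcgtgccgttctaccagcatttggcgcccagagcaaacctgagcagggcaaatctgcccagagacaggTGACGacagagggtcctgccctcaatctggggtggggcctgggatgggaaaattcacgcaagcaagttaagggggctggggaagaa
The RefSeq starts of *Psmb9* and *Tap1* flank 225 bases, whereas GENCODE, used for gene positions here, starts *Psmb9* farther upstream so that the genes overlap, and the TGACG match reaches 86 bases before the *Tap1* start and 144 bases before that of *Psmb9*, each counted to its far end. In windows of 250 bases before and 50 bases after the start, TGACG was found for 5 of the 8 genes and in 17.8% of all 32851 windows, CCAAT for 6 of 8 and in 33.8%, and the NF-kB site for 3 of 8 and in 7.25%. The 2 interferon-type patterns had few exact matches. The GAAA repeat was found for *B2m* alone and in 2.98% of windows, and TTCNNNGAA for *Psmb8* alone and in 7.02%. Variants of these patterns were not searched, so a window without a match, such as that of *H2-K1* or *H2-D1*, may still hold an interferon-response element. The *Psmb10* window held none of the 5 motifs. A match describes the letters of a window and is no evidence of binding.

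*Pbrm1* itself was at 7452 to 9871 normalized counts in control tumors and at 2484 to 3138 in knockout tumors, or 31% of the control mean, so every knockout library matched its label. Libraries held 32924414 to 49099168 reads on genes. Renal epithelial markers summed to 108400 to 129500 normalized counts in control, 91340 to 121600 in clone 4 and 95300 to 111600 in clone 18 tumors. The 10 macrophage markers summed to 86120 to 114000 in control, 68060 to 84210 in clone 4 and 61480 to 81750 in clone 18 tumors, and 6 of them were called lower and 0 higher in knockout tumors. Of 11 T cell markers 3 were called lower and 0 higher, and their sum was 642 to 2188 in control, 745 to 1107 in clone 4 and 649 to 861 in clone 18 tumors. Of 7 pan-leukocyte markers 2 were called lower, with sums of 17424 to 29731, 17930 to 23501 and 15204 to 20801. Beside these counts, limma called 12.9% of all genes lower and 22.1% in all. No marker of these 3 lists was at 0 throughout the knockout tumors. Other immune lists went different ways, with mean sums in control, clone 4 and clone 18 tumors of 867.7, 1037 and 805.5 for B cells. In the same order dendritic cell sums were 2220, 2611 and 2333 and neutrophil sums 1271, 1455 and 1269. NK cell sums were 229.8, 143.6 and 96.04. Here 1 B cell, 1 dendritic cell, 2 neutrophil and 0 NK cell markers were called lower and 0 higher. Fibroblast marker sums varied widely, from 47630 to 80040 in control, 17640 to 182700 in clone 4 and 59370 to 120900 in clone 18 tumors. Endothelial sums were 6196 to 12410, 7659 to 13680 and 8561 to 10510 in the same order. In both lists 0 markers were called lower and 0 higher. In whole tumors fewer cells of a type and less RNA per cell cannot be told apart, and the part of these cells in the differences below was not tested.

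Between *Pbrm1* knockout and control tumors, the immunoproteasome subunits *Psmb10* and *Psmb9* and the chaperone *Tapbp* fell, while the 7 other genes did not pass the test. *Psmb10* was at 67.5% of the control mean, *Psmb9* at 69.6% and *Tapbp* at 84.0%. The call rule was an adjusted p under 0.05 over all 18250 genes tested with limma on log2(normalized count + 1). Hence 3 of the 10 genes were called, all lower, where 22.1% of all genes were called and 12.9% were called lower. The median log2 difference of the 10 genes was -0.10 and that of all genes -0.02. For both clones together, all 10 genes had the same sign under all 23 alternative settings, scaling choices included. The *Psmb10* call held in all of these settings, while the *Psmb9* call was lost in 1 and the *Tapbp* call in 18 of the 23. None of the 10 had every knockout tumor below every control tumor, which held for 4.87% of all genes.

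**Figure D1:**
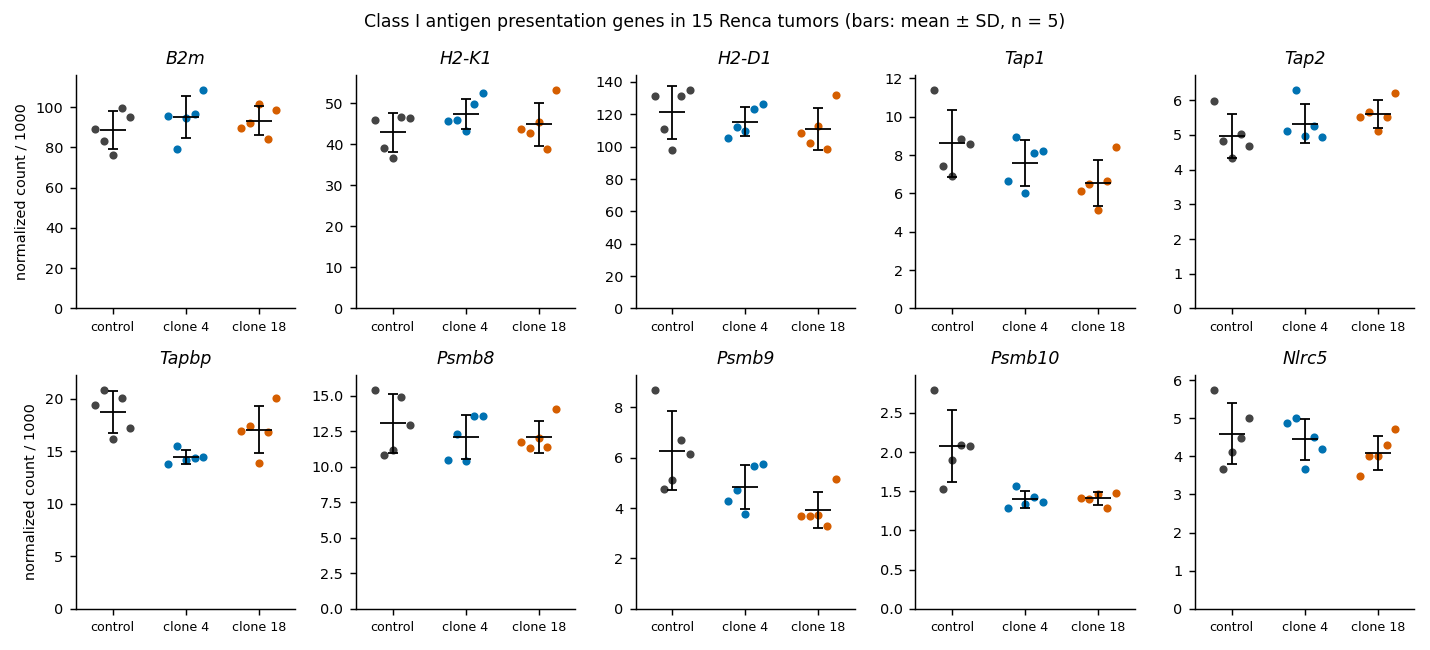
Normalized read count, in units of 1000 (vertical axis, from 0), of the 10 genes in each of the 15 tumors, by group. Points are tumors and bars are mean ± SD of 5 tumors. *Psmb10* in knockout tumors sits at 1281 to 1561 against 1527 to 2790 in control tumors, while the *B2m* ranges overlap.

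The heavy and light chains of the class I molecule were the most abundant members in all groups. Per kilobase of the principal transcript, *B2m* was at 103100 ± 11000 normalized counts in control tumors (SD, n = 5), *H2-D1* at 57670 ± 7710 and *H2-K1* at 26490 ± 2910. The next in order were *Psmb8* at 8021 ± 1280, *Tapbp* at 6468 ± 677, *Psmb9* at 4647 ± 1150 and *Tap1* at 2919 ± 589, and each of these overlapped the next in its range over the control tumors. *Psmb10* at 1584 ± 350 and *Tap2* at 1444 ± 182 also overlapped each other, and *Nlrc5* was lowest at 606 ± 106. Together *B2m*, *H2-K1* and *H2-D1* took 0.493% to 0.656% of the reads on genes in a tumor.

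*B2m* (ENSMUSG00000060802, chr2:122147686-122153083 of GRCm38) encodes β2-microglobulin, the invariant light chain. It was at 89303, 82933, 76033, 99574 and 95307 normalized counts in control tumors, at 95383, 79273, 94483, 96519 and 108556 in clone 4 and at 89482, 92169, 101623, 84091 and 98759.5 in clone 18 tumors. The 3 groups overlapped. The log2 difference of knockout from control was 0.09 with a 95% interval of -0.10 to 0.27 (limma adjusted p = 0.539). *H2-K1* (ENSMUSG00000061232, chr17:33996017-34000347) and *H2-D1* (ENSMUSG00000073411, chr17:35262730-35267499) are the classical heavy chains that hold the peptide. *H2-K1* was at 45786, 39047, 36599, 46694 and 46274 normalized counts in control, 45631, 45888, 43314, 49849 and 52385 in clone 4 and 43804, 42823, 45436, 38921 and 53249 in clone 18 tumors. *H2-D1* was at 131433, 110633, 97886, 131051 and 135138, 105344, 112419, 109678, 122997 and 126328 and 108272, 102294, 112601, 98539.9 and 131956 in the same order. Both genes overlapped between groups, and their log2 differences were 0.11 (-0.07 to 0.28, adjusted p = 0.410) and -0.10 (-0.30 to 0.11, adjusted p = 0.544).

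The balance of the heavy chains differed between the groups although neither gene passed alone. The ratio of *H2-K1* to *H2-D1* counts within a tumor does not depend on library scaling. It was 0.348, 0.353, 0.374, 0.356 and 0.342 in control tumors, 0.433, 0.408, 0.395, 0.405 and 0.415 in clone 4 and 0.405, 0.419, 0.404, 0.395 and 0.404 in clone 18 tumors. All 10 knockout tumors lay above every control tumor. The mean rose from 0.355 ± 0.0119 (SD, n = 5) to 0.408 ± 0.0115 (SD, n = 10), with a two-sided exact permutation p of 0.000333, the smallest that 5 against 10 tumors can give, and 0.000999 adjusted over the 3 class I chain ratios. Each clone alone was above every control tumor in 5 of 5 tumors (exact permutation p = 0.00794, the smallest that 5 against 5 tumors can give, adjusted p = 0.0238). The ratio of *H2-D1* to *B2m* was 1.37 ± 0.0768 in control and 1.21 ± 0.106 in knockout tumors, with 8 of 10 knockout tumors below every control (exact permutation p = 0.0150, adjusted p = 0.0225). By clone it was 1.22 ± 0.125 in clone 4 (adjusted exact permutation p = 0.0952) and 1.19 ± 0.0938 in clone 18 (adjusted exact permutation p = 0.0476). Without control tumor 1 the pooled call was lost (adjusted p = 0.0629). *H2-K1* to *B2m* was 0.484 ± 0.0176 and 0.492 ± 0.0414 (exact permutation p = 0.742). The class I heavy chains resemble each other. Of the 50-base windows of the principal transcripts, 8.8% for *H2-K1* and 14.3% for *H2-D1* also occur in transcripts of other genes, and 6.9% of those of *H2-K1* occur in *H2-D1*. BALB/c mice carry other class I alleles than the C57BL/6 reference, so counts of these genes are uncertain, and the part of read assignment in the ratio was not tested.

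**Figure D2:**
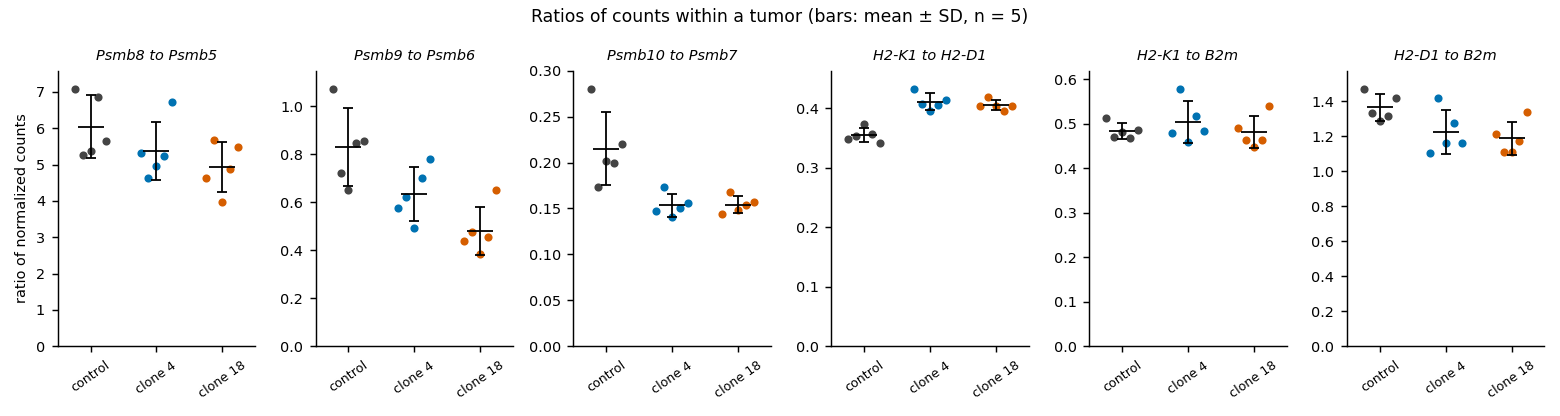
Ratios of normalized counts within each tumor (vertical axes, from 0, no unit) for the inducible to constitutive proteasome subunits and for the class I chains, by group. Points are tumors and bars are mean ± SD of 5 tumors. *H2-K1* to *H2-D1* lies at 0.342 to 0.374 in control and at 0.395 to 0.433 in knockout tumors.

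The 2 transporter subunits went opposite ways in their means, and neither passed the limma test on all 15 tumors. *Tap1* (ENSMUSG00000037321, chr17:34187553-34197225) was at 11399, 7404, 6923, 8816 and 8552 normalized counts in control, 6632, 8962, 6021, 8128 and 8196 in clone 4 and 6131, 6468, 5110.2, 6626 and 8431 in clone 18 tumors. Clone 18 tumors were the lowest group with 4 of 5 below every control tumor, and their highest tumor reached into the control range. The log2 difference was -0.28 ± 0.13 (SE, adjusted p = 0.130) for both clones, -0.18 ± 0.14 (adjusted p = 0.462) for clone 4 and -0.39 ± 0.14 (adjusted p = 0.0544) for clone 18. In clone 18 *Tap1* passed as lower with DESeq2 (adjusted p = 0.0322) and when control tumor 3, clone 4 tumor 8 or clone 18 tumor 15 was left out (adjusted p = 0.0337, 0.0481 and 0.0195). *Tap2* (ENSMUSG00000024339, chr17:34203527-34216321) was at 5989, 4823, 4327, 5027 and 4681 in control, 5122, 6297, 4977, 5262 and 4953 in clone 4 and 5515, 5645, 5109, 5520.0 and 6212 in clone 18 tumors. Its values were highest on average in clone 18 and overlapped in all groups (log2 difference 0.14 ± 0.075 SE, adjusted p = 0.202). Control tumor 1 had the highest control value of both genes. Without it the log2 difference of *Tap1* for both clones was -0.18, and *Tap2* passed as higher, at 0.21 (adjusted p = 0.0474). In clone 18 *Tap2* also passed as higher without that tumor and with quantile scaling (adjusted p = 0.0326 and 0.0404).

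*Tapbp* (ENSMUSG00000024308, chr17:33915899-33929292) encodes tapasin, which bridges TAP and the empty class I molecule. It was at 19391, 20824, 16168, 20085 and 17256 normalized counts in control tumors and at 13755, 15525, 14151, 14366 and 14422 in clone 4 tumors, all 5 of which lay below every control tumor. Clone 18 tumors were at 16977, 17442, 13871, 16866 and 20105, and 1 of 5 lay below every control. The log2 difference was -0.37 ± 0.089 (SE, adjusted p = 0.00818) in clone 4, at 77.1% of control, and -0.14 ± 0.089 (adjusted p = 0.280) in clone 18. Clone 18 was higher than clone 4 by 0.23 (95% interval 0.04 to 0.42), which did not pass over all genes (adjusted p = 0.168). For both clones together the difference was -0.26 ± 0.090 with an adjusted p of 0.0497, and this call was lost under 18 of 23 alternatives, with values from -0.28 to -0.21. The gene overlaps *Zbtb22* on the same strand and *Gm19412* on the other, and 21.0% of the 50-base windows of its transcript occur in other genes.

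Of the 3 immunoproteasome subunits *Psmb10* and *Psmb9* were called and *Psmb8* was not. *Psmb10* (ENSMUSG00000031897, chr8:105935735-105938444), which takes the place of *Psmb7*, was at 2789.9, 1527, 1903, 2089 and 2076 normalized counts in control tumors. It was at 1289, 1561, 1338, 1424 and 1368 in clone 4 and at 1412, 1405, 1469, 1281 and 1478 in clone 18 tumors. Of the 10 knockout tumors 9 lay below every control tumor, and the exception was clone 4 tumor 7. The log2 difference was -0.54 ± 0.097 (SE, adjusted p = 0.000682) for both clones, -0.55 ± 0.11 (adjusted p = 0.00274) for clone 4 and -0.53 ± 0.11 (adjusted p = 0.00246) for clone 18. The 2 clones differed by 0.01 (95% interval -0.22 to 0.25). *Psmb10* was called in every alternative run, with values from -0.65 to -0.43. It overlaps *Gm16156* on the other strand.

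*Psmb9* (ENSMUSG00000096727, chr17:34181987-34187764), which replaces *Psmb6*, was at 8679.5, 4752, 5108, 6718 and 6157 normalized counts in control, 4286, 4709, 3781, 5662 and 5735 in clone 4 and 3693, 3685, 3737, 3269 and 5141 in clone 18 tumors. Control tumor 1 was the highest of all, and 3 clone 4 and 4 clone 18 tumors lay below every control. The log2 difference was -0.52 ± 0.15 (SE, adjusted p = 0.0177) for both clones, -0.36 ± 0.16 (adjusted p = 0.129) for clone 4 and -0.67 ± 0.16 (adjusted p = 0.00482) for clone 18. The difference between the clones did not pass (-0.31, 95% interval -0.64 to 0.02, adjusted p = 0.310). Without control tumor 1 the pooled call was lost, at -0.39 (adjusted p = 0.0718). That tumor also had the highest sums of T cell markers (2188, against 642 to 1292 in the other control tumors) and of macrophage markers (114037, against 86122 to 100159). In GENCODE *Psmb9* and *Tap1* overlap by 212 bases on opposite strands, and the sources used here do not say whether counting used the strand.

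*Psmb8* (ENSMUSG00000024338, chr17:34197721-34201454), which replaces *Psmb5*, lies between *Tap1* and *Tap2*. It was at 15402, 10854, 11164, 14914 and 12958 normalized counts in control, 10505, 12302, 10436, 13598 and 13551 in clone 4 and 11762, 11306, 11997, 11363 and 14106 in clone 18 tumors. The groups overlapped, and the log2 difference was -0.10 (95% interval -0.30 to 0.09, adjusted p = 0.473). The constitutive subunits *Psmb5*, *Psmb6* and *Psmb7* did not pass in any comparison with the control, with pooled log2 differences of 0.13, 0.07 and -0.07.

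Each inducible subunit was then set against the constitutive subunit whose place it takes. The *Psmb10* to *Psmb7* ratio was 0.281, 0.173, 0.202, 0.2 and 0.22 in control tumors, 0.147, 0.173, 0.14, 0.151 and 0.156 in clone 4 and 0.144, 0.168, 0.148, 0.154 and 0.157 in clone 18 tumors. All 10 knockout tumors lay below every control, though clone 4 tumor 7 at 0.1729 only narrowly so, against 0.1734 in control tumor 2. The mean fell from 0.215 ± 0.0402 (SD, n = 5) to 0.154 ± 0.0102 (SD, n = 10), with a two-sided exact permutation p of 0.000333, adjusted over the 3 ratios to 0.000999. The *Psmb9* to *Psmb6* ratio fell from 0.831 ± 0.161 to 0.558 ± 0.129, with 8 of 10 knockout tumors below every control (exact permutation p = 0.00533, adjusted p = 0.00799). In clone 18 all 5 tumors were below every control at 0.481 ± 0.101 (adjusted exact permutation p = 0.0119), and in clone 4 the ratio was 0.634 ± 0.111 (adjusted exact permutation p = 0.0714). *Psmb8* to *Psmb5* was 6.04 ± 0.860 in control and 5.15 ± 0.741 in knockout tumors (exact permutation p = 0.0553, adjusted p = 0.0553). This last ratio passed when control tumor 2, control tumor 3 or clone 4 tumor 10 was left out (adjusted p = 0.0380, 0.0430 and 0.0125).

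*Nlrc5* (ENSMUSG00000074151, chr8:94434356-94527272) is the transactivator of class I genes. It was at 5735, 3656, 4114, 4472 and 4993 normalized counts in control, 4865, 5016, 3659, 4495 and 4204 in clone 4 and 3481, 3995, 4000.2, 4297 and 4703 in clone 18 tumors. The groups overlapped, and the log2 difference was -0.10 (95% interval -0.31 to 0.11, adjusted p = 0.541).

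**Figure D3:**
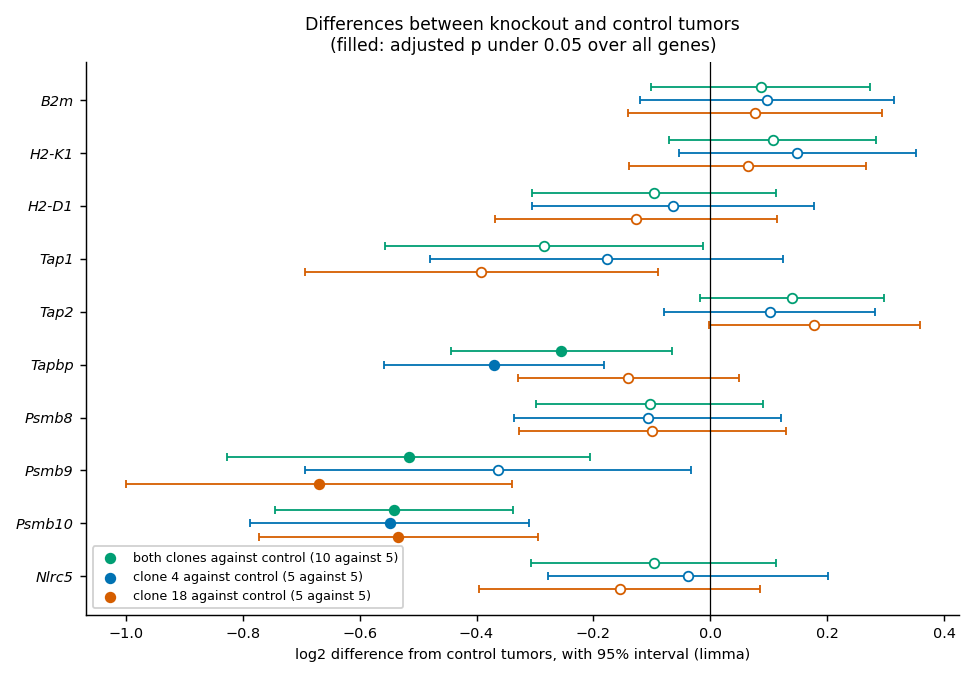
Log2 difference of the 10 genes from the 5 control tumors (horizontal axis, with 95% intervals from limma) for both clones, clone 4 and clone 18. Filled points passed an adjusted p under 0.05 over all genes. *Psmb10* is filled in all 3 comparisons, *Tapbp* in 2 and *Psmb9* in 2.

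By clone, 2 of the 10 genes were called in clone 4, *Tapbp* and *Psmb10*, where 16.8% of all genes were called and 10.0% were called lower. In clone 18 they were *Psmb9* and *Psmb10*, where 24.7% of all genes were called and 14.2% were called lower. Both comparisons used the same 5 control tumors. Clone 18 against clone 4 gave 0 calls among the 10 genes, with 1 at an unadjusted p under 0.05 (*Tapbp*), and limma called 4.62% of all genes. DESeq2 and edgeR on the recovered reads also gave 0 calls there. Without control tumor 1, the genes called for both clones were *Psmb10*, lower, and *Tap2*, higher.

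Among the other listed genes of the pathway with a mean of at least 10 normalized counts, the called gene with the largest pooled log2 difference was *Tapbpl*. It encodes TAPBPR, a relative of tapasin that edits the peptides held by class I molecules. *Tapbpl* was at 1429.8, 1054, 1099.8, 1097 and 1222 normalized counts in control, 590.2, 660.3, 521, 539 and 584 in clone 4 and 592, 600.4, 615, 599 and 729 in clone 18 tumors. All 10 knockout tumors were below every control tumor, with a log2 difference of -0.96 ± 0.085 (SE, limma adjusted p = 4.75e-07), or 51.1% of the control mean. It overlaps *Vamp1* on the other strand. *Thop1*, a cytosolic peptidase that degrades class I peptides, rose from 2742 ± 154 (SD, n = 5) to 3401 ± 338 (SD, n = 10), a log2 difference of 0.31 (adjusted p = 0.00422). These were the 2 calls among 12 loading chaperones and trimming peptidases, whose median log2 difference was -0.14 against -0.02 for all genes, and 22.1% of all genes were called.

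In clone 18, 6 of these 12 genes were called lower and 1 higher by limma, where 24.7% of all genes were called and 14.2% were called lower. DESeq2 gave the same counts and edgeR 3 lower and 1 higher. Beside *Tapbpl* the lower genes, named after their values were seen, were *Pdia3*, *Erap1*, *Lnpep*, *Lap3* and *Tpp2*. *Pdia3*, a thiol oxidoreductase of the loading complex, fell by 0.34 on the log2 scale (adjusted p = 0.00902), and *Erap1*, which trims peptides in the endoplasmic reticulum, by 0.37 (adjusted p = 0.00777). In clone 4 their log2 differences were -0.13 (adjusted p = 0.360) and -0.11 (adjusted p = 0.485), and the differences between the clones did not pass (adjusted p = 0.203 and 0.132). The lectin chaperones *Calr* and *Canx* were at pooled log2 differences of 0.05 (adjusted p = 0.699) and -0.09 (adjusted p = 0.508).

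**Figure D4:**
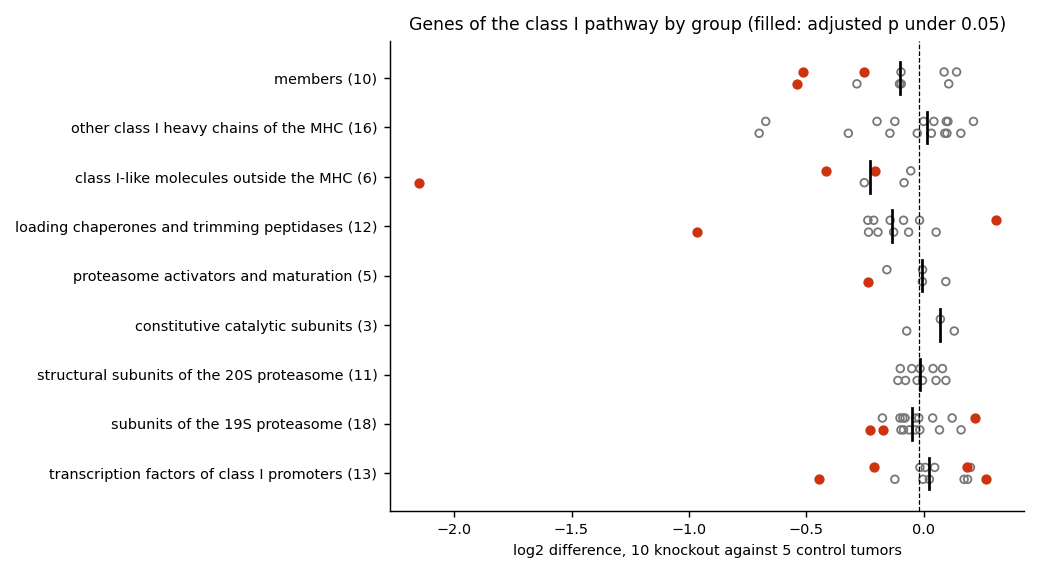
Log2 difference of 10 knockout against 5 control tumors (horizontal axis) for each gene of the pathway groups, with the number of genes in parentheses. Filled points passed an adjusted p under 0.05, thick lines are group medians and the dashed line is the median of all genes, -0.02. *Tapbpl* is the filled point at -0.96 among the chaperones and peptidases.

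Other proteasome genes were tested in the same way. Of 11 structural subunits of the 20S core, 0 were called in the pooled comparison by limma, edgeR or DESeq2, where limma called 22.1% of all genes. Also 0 of the 11 had an unadjusted p under 0.05, and their median log2 difference was -0.02. Of 18 subunits of the 19S cap 2 were called lower, *Psmd2* (-0.23, adjusted p = 0.0334) and *Adrm1* (-0.18, adjusted p = 0.0238), and 1 higher, *Psmc2* (0.22, adjusted p = 0.0262), beside 12.9% of all genes called lower and 22.1% called in all. In clone 4, 0 of the 18 were called by limma, edgeR or DESeq2 (adjusted p = 0.272, 0.176 and 0.0944 for these 3 genes in limma), with 2 at an unadjusted p under 0.05 in limma. Of all genes limma called 16.8% in clone 4. In clone 18 limma called 3 of the 18 lower and 1 higher, or 22.2%, beside 24.7% of all genes. There edgeR and DESeq2 each called 3 lower and 2 higher, and for both clones each called 2 lower and 2 higher. The interferon-inducible PA28 activator genes *Psme1* and *Psme2* were at pooled log2 differences of 0.09 (adjusted p = 0.319) and 0.00 (adjusted p = 0.972). In clone 18 *Psme1* was at 0.17 (limma adjusted p = 0.0684). *Pomp*, the maturation factor that assembles new 20S proteasomes, fell from 6560 ± 326 to 5574 ± 440, a log2 difference of -0.24 (adjusted p = 0.00775), with 9 of 10 knockout tumors below every control. Of the 5 activator and maturation genes, limma called 1 lower in clone 18, which was *Pomp*, and 0 higher. There edgeR called 0 lower and 1 higher, and DESeq2 1 lower and 1 higher. Of all genes limma called 24.7% in clone 18.

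Of 29 other class I heavy chains of the MHC 16 were in the table. In the pooled comparison 0 of the 16 were called by limma, edgeR or DESeq2, where limma called 22.1% of all genes. Also 0 had an unadjusted p under 0.05, and the median log2 difference was 0.02. In clone 18, limma and edgeR called 0 of the 16 and DESeq2 called 1, as lower. In clone 4 *H2-Q2* was called higher than control (0.27, adjusted p = 0.0482), and it was lower in clone 18 than in clone 4 (-0.35, adjusted p = 0.0334). It was the 1 call among the 16 in clone 4, where limma called 16.8% of all genes. This gene was named after its values were seen. Of 6 class I-like molecules outside the MHC 3 were called lower by limma and DESeq2 and 2 by edgeR, beside 12.9% of all genes called lower in limma. *Fcgrt*, the neonatal Fc receptor chain that also pairs with β2-microglobulin, fell by 0.42 on the log2 scale (adjusted p = 0.00232) and *Hfe*, which controls iron uptake, by 0.21 (adjusted p = 0.0437). In clone 4 the count was 1 of 6, beside 10.0% of all genes called lower in limma, and *Hfe* was at -0.18 (adjusted p = 0.160). *Azgp1* was at 8.28 ± 9.26 normalized counts in control tumors and at 0.31 ± 0.687 in knockout tumors, too few for a fold.

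Among 13 transcription factors that act at class I promoters, 2 were called higher and 2 lower in knockout tumors by limma, beside 22.1% of all genes called. By edgeR 3 were higher and 1 lower, and by DESeq2 3 and 2. *Rfxap*, a subunit of the RFX complex that works with NLRC5, rose by 0.27 on the log2 scale (adjusted p = 0.0360) and *Nfyb*, a subunit of the CCAAT-binding factor, by 0.19 (adjusted p = 0.0376), while *Creb1* fell by 0.21 on the log2 scale (adjusted p = 0.0453). In clone 18 all 3 RFX subunits passed as higher, which was noticed after their values were seen. *Rfxap* was at 0.39 (adjusted p = 0.00270), *Rfxank* at 0.30 (adjusted p = 0.0222) and *Rfx5* at 0.21 (adjusted p = 0.0333). In clone 4 they were at 0.15, 0.07 and 0.13, none of which passed (adjusted p = 0.273, 0.652 and 0.217), and no difference between the clones passed (adjusted p = 0.114, 0.180 and 0.590). *Irf1*, an interferon-induced factor, was at 0.02 (adjusted p = 0.915).

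Of the 10 genes 7 lie on chromosome 17, where the starts of *Tapbp* and *H2-D1* enclose a stretch of 1346.8 kb (chr17:33915899-35262730) with 83 genes in the table apart from the 10. Of these 11 were called lower and 4 higher in knockout tumors, or 18.1%, beside 22.1% of all genes, with a median log2 difference of -0.10. *H2-Oa*, a chain of H2-O, which tunes peptide loading of class II molecules, was at 348 ± 36.4 normalized counts in control, 55.9 ± 15.7 in clone 4 and 44.3 ± 6.57 in clone 18 tumors, below every control in 10 of 10 (log2 difference -2.80, adjusted p = 1.73e-08). *Ager*, a receptor for glycated proteins, was at -1.20 (adjusted p = 0.000955), and *Btnl2*, a butyrophilin-like gene with few reads, at -2.91 (adjusted p = 0.00310).

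Within a group, tumors high in one gene of the pathway tended to be high in others. After removal of the group means, the median Pearson r over the 45 pairs was 0.633 (15 tumors), from -0.156 to 0.966, and 43 pairs were above 0. The tumors share their size factors across genes, so these values are a description. *H2-K1* and *H2-D1* had the highest r, 0.966, which was 0.949 without the 2 tumors farthest from the median of *H2-K1*. *Psmb8* and *Psmb9* followed at 0.949. Other pairs moved more without the 2 farthest tumors. *Tap2* and *Psmb10* went from 0.645 to 0.194, *Psmb10* and *Nlrc5* from 0.706 to 0.340, and *H2-D1* and *Tapbp* from 0.355 to -0.153. *Tap2* and *Tapbp* rose from 0.673 to 0.847. The Spearman rank correlation over all 15 tumors was 0.561, 0.604, 0.268 and 0.764 for these pairs in turn. Without the 2 farthest tumors the median Pearson r over the pairs was 0.448. *B2m* was apart from the loading genes, at -0.156 with *Tap2*. Control tumor 1 was the highest of all 15 tumors for 5 genes, control tumor 3 the lowest for 4, and clone 18 tumor 15 the highest of its group for 9. Outside the 10 genes, those most like them were ranked by median r with the group means kept in, so that differences between groups enter. They were *H2-T22* (0.699), *Gm4841* (0.677), *Cd6* (0.662), *Eif2b2* (0.661) and *Tgtp1* (0.658), out of 16484 genes with a mean of at least 10. With group means removed the same 5 genes had a median r of 0.714, 0.736, 0.662, 0.654 and 0.766.

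**Figure D5:**
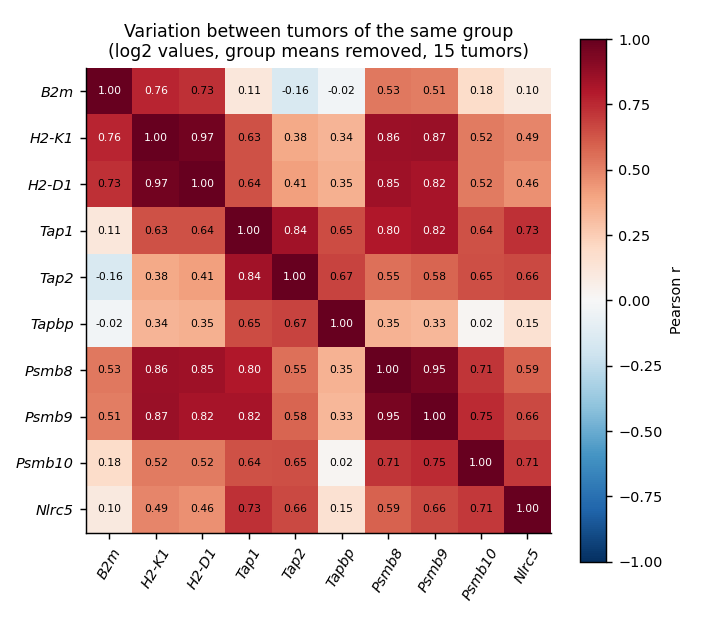
Pearson r between the log2 values of each pair of the 10 genes over 15 tumors, with the mean of each group removed. Both axes list the genes, and the color scale runs from -1 to 1. *H2-K1* and *H2-D1* reach 0.966, and *B2m* with *Tap2* is at -0.156.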

How the data were processed

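Total RNA from 15 whole tumors was sequenced in bulk. According to the methods and the submitters' processing notes, the authors used TopHat2 for alignment to mm10, HTSeq for counts per gene and DESeq for normalization, and versions, gene annotation and strand setting are not given in the sources used here. The deposited values are a signal, gene counts divided by a size factor and rounded to 0.1, so they compare a gene between tumors and not genes of different length. Each column was mapped to its tumor by name. Whole reads were recovered from the steps between low values, and at least 99.65% of values up to 8000 in every tumor were whole within 0.05. Depth was 32924414 to 49099168 reads on genes (median 40860658), and intervals do not cover errors of read assignment.

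Of 18279 genes 29 were at 0 in all tumors and 18250 were tested with limma 3.58.1 with trend (R 4.3.3) on log2(normalized count + 1), in 1 fit of both clones against control and 1 fit of the 3 groups, with Benjamini-Hochberg adjustment over all genes. Fold changes are on that scale. Ratios within a tumor were tested with two-sided exact permutation over tumors. Alternatives were pseudocounts of 0.1 and 5, a mean of at least 10, upper quartile and quantile scaling, limma without trend, fits of the control with 1 clone, count tests of the recovered reads with DESeq2 1.42.0 and with edgeR 4.0.16, and each tumor left out in turn. On the recovered reads edgeR called 4105 genes and DESeq2 4615 for both clones, against 4040 by limma. Scripts were tested on simulated data. Gene positions and principal transcripts came from GENCODE for GRCm38, promoter windows from RefSeq.

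The 10 genes and the gene lists were chosen with earlier results of these data known. Genes named beyond them by rule were the constitutive subunits, the PA28 genes, the up to 3 genes with a mean of at least 10 and the largest called change of each list, and the 5 most like the members. *Nfyb*, *Irf1*, *Calr*, *Canx* and *Azgp1*, and the genes marked as named or noticed after their values were seen, fall outside this rule. 1 gene that this rule names is not reported here.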

Additional observations from a re-analysis of the deposited data

Results flagged for a closer look

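In 3 of the 48 sets of 5 tumors examined for the members and their partner genes, 1 tumor stood apart from the other 4 by more than Dixon's limit, and chance flags about 1 in 20 sets, or 2.4 here. *Tap2* in clone 4 tumor 7 was at 6297.3 normalized counts, above 4952.7 to 5262.3 in the other clone 4 tumors. In clone 18 tumor 15 *Psmb8* was at 14106 normalized counts, above 11306 to 11997 in the other 4, and *Psmb9* was at 5140.8, above 3268.7 to 3737.1. Both immunoproteasome genes were thus high in the same tumor.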

How the results depend on the processing

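Of 10 members, 2 to 3 were called for both clones, 2 in every alternative for clone 4 and 2 to 3 for clone 18, the added gene being *Tap1* (lower) or *Tap2* (higher). For clone 18 against clone 4 the count was 0 in every alternative except without clone 18 replicate 3 (tumor 13), which gave 1, so that leaving out each tumor in turn gave 0 to 1. The *Tapbp* call for both clones was lost with pseudocounts of 0.1 and 5, upper quartile and quantile scaling, limma without trend and edgeR (adjusted p = 0.0508, 0.0506, 0.0739, 0.0858, 0.0744 and 0.0772) and in most fits with 1 tumor left out. The cause was not tested. The *H2-K1* to *B2m* log2 ratio, which passed nowhere, was 0.02, ranged from -0.0068 to 0.041 with 1 tumor left out, and was negative only without clone 4 replicate 2 (tumor 7). For both clones, quantile scaling moved the split of calls over all genes from 2356 lower and 1684 higher to 1971 lower and 2265 higher. It changed the sign of no member there. In clone 18 the log2 difference of *B2m* went from 0.08 to -0.02 with it (limma adjusted p = 0.645 and 0.881). *Psmb10* and the *H2-K1* to *H2-D1* and *Psmb10* to *Psmb7* ratios passed in every alternative run. Each member held at least 1122 reads in each tumor, the lowest being *Psmb10*, and 5 tumors a group limit the precision. No paired analysis was possible because no label links tumors of different groups.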
